A study of Mus musculus with 30 samples.

Results

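A set of 10 genes of the canonical Wnt pathway were followed through RNA-seq and ATAC-seq libraries of mouse brain endothelial cells (ECs): beta-catenin itself (Ctnnb1), the complex that marks it for destruction (Apc, Axin1, Gsk3a, Gsk3b, Csnk1a1 and Btrc), and 3 coactivators that join it in the nucleus (Bcl9, Bcl9l and Pygo2). They were chosen by name, as a list, and make up 10 of the 21847 protein-coding genes in the RNA-seq files. All 10 passed the filter on low counts of the main test in every comparison below.

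Part of a cell's beta-catenin sits at adherens junctions under cadherins, and the rest is made and degraded continuously in the cytoplasm. There, APC and axin hold beta-catenin while casein kinase 1 alpha and then glycogen synthase kinase 3 phosphorylate its N terminus, and the ubiquitin ligase adaptor beta-TrCP (Btrc) reads the phosphorylated residues. A Wnt signal stops this step, beta-catenin enters the nucleus, and there it binds TCF/LEF factors and recruits BCL9 or BCL9L, which in turn carry pygopus proteins. In the brain vasculature this pathway is known for driving and maintaining the blood-brain barrier program.

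The study compared brain ECs taken straight from the animal with ECs grown in culture, with and without a stabilized form of beta-catenin. The 14 RNA-seq libraries fell into 4 groups: 2 of GFP-negative brain cells and 2 of acutely isolated ECs, both sorted from adult Tie2-GFP mice; 6 of WT cultured ECs; and 4 of beta-catenin stabilized cultured ECs, both cultured for 8 days with puromycin selection. WT cultures 1 and 2 came from C57BL/6J mice by isolation method A (papain digestion), and WT cultures 3 to 6 came from Ctnnb1flex3/+;Tie2-GFP mice by method B (Dounce homogenization), so the latter carried the floxed allele without Cre. Stabilized cultures were Ctnnb1flex3/+;Pdgfb-CreER;Tie2-GFP, in which the Pdgfb-driven Cre removes exon 3 of Ctnnb1 from 1 allele in ECs once 4-hydroxytamoxifen is given, with replicates 1 and 2 by method A and replicates 3 and 4 by method B. The mice were injected with 4-hydroxytamoxifen when young, though for the C57BL/6J controls the study's account can be read either way. What the study calls adult brain ECs combines its own cerebrum data with cerebellum data published earlier. Sorted cells were read with 75 cycles, WT cultures 3 and 4 with 150 and all other cultures with 36. Cultures of 1 experiment were wells from pooled brains, so p-values over wells measure a spread that may be partly technical. The 10 ATAC-seq libraries were 2 of acutely isolated Tie2-GFP ECs, 6 of WT cultures of the genotypes and methods above, and 2 of stabilized cultures by method B.

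Totals ran from 24284843 to 94686456 estimated counts per RNA-seq library, and mitochondrial transcripts took 10.6% to 24.2% of the counts in sorted cells but 0.67% to 2.58% in cultures. In endothelial markers the sorts were as labelled. Summed over 7 endothelial markers, levels were 6970 to 9070 TPM (a length-corrected share of all transcripts, rescaled to the nuclear protein-coding genes) in acutely isolated ECs and 22.8 to 74.0 in GFP-negative cells, and the sum was between 2920 and 9330 in the cultures. Single endothelial markers moved apart, since in WT cultures 4 of the 7 were called lower than in acutely isolated ECs (Flt1 at −4.54, Kdr at −3.50, Tek at −3.38 and Cldn5 at −1.97, log2) and 1 higher (Emcn at 2.83). All 4 markers each of neurons, astrocytes, oligodendrocytes and microglia were lower in acutely isolated ECs than in GFP-negative cells at an adjusted p under 0.05. Pericyte transcripts (4 markers) were at 758 to 873 TPM in acutely isolated ECs and 838 to 1260 in GFP-negative cells, and 0 of the 4 passed between these sorts. In WT cultures they were at 3.19 to 11.6, and all 4 pericyte markers fell from acutely isolated ECs to WT cultures. Summed over 4 markers, erythrocyte transcripts ran from 16900 to 101000 in acutely isolated ECs and from 4890 to 42800 in GFP-negative cells, and 0 of the 4 passed between these sorts. They were at most 1.56 in WT cultures, where 2 of the 4, Hbb-bt and Alas2, had no count. Smooth muscle transcripts (3 markers) were at 522 to 716 in acutely isolated ECs, 1080 to 7490 in WT cultures and 13200 to 14400 in GFP-negative cells, but between acutely isolated ECs and WT cultures Acta2 and Tagln rose (3.11 and 5.51) while Myh11 fell (−4.40). Their part in the results below was not tested. In bulk RNA, fewer cells of a type and less RNA per cell cannot be told apart.

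The stabilizing deletion is of a single exon, whose sequence is shown because it holds the residues that the destruction complex works on. Exon 3 of Ctnnb1 lies on the plus strand at chr9:120950522-120950749 (GRCm38), is coding throughout, and is 228 bases long, a multiple of 3, so that its removal keeps the reading frame. It touches residues 5 to 80 of the 781 residues of beta-catenin. The capitals mark, in order, the codons of S33, S37, T41 and S45, where glycogen synthase kinase 3 phosphorylates the first 3 and casein kinase 1 alpha the last.

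Ctnnb1 exon 3: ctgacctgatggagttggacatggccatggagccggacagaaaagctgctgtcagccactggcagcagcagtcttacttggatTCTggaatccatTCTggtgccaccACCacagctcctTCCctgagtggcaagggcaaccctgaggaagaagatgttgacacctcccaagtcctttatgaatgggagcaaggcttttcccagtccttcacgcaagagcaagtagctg

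None of the 15 annotated Ctnnb1 transcripts joined exon 2 directly to exon 4, and 6 held exon 3. The transcript tables therefore had no entry to which a read across the deletion could be given, and the stabilized cultures still placed 81.8% to 87.7% of their Ctnnb1 counts in transcripts with exon 3, between the 73.4% and 99.9% of WT cultures. The genotype of the stabilized cultures could not be read from these values.

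In acutely isolated ECs Ctnnb1 was by far the most abundant of the 10. On the scale that is corrected for transcript length (rescaled TPM), its mean was 2540, followed by Csnk1a1 at 232.9, Apc at 189.5, Gsk3b at 91.0, Btrc at 30.6, Gsk3a at 29.4, Bcl9l at 27.6, Axin1 at 14.9, Pygo2 at 13.7 and Bcl9 at 2.49 (n = 2). Btrc, Gsk3a and Bcl9l, and then Axin1 and Pygo2, were neighbours whose means lay close together with only 2 libraries each. In WT cultures the order was Ctnnb1 at 888.7, Csnk1a1 at 360.5, Pygo2 at 67.9, Gsk3a at 40.1, Gsk3b at 32.98, Apc at 26.6, Axin1 at 17.8, Btrc at 13.3, Bcl9l at 3.07 and Bcl9 at 0.789 (n = 6). Pygo2 thus had rank 9 in acutely isolated ECs and rank 3 in both kinds of culture, and Bcl9 was last in all of these groups.

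**Figure D1:**
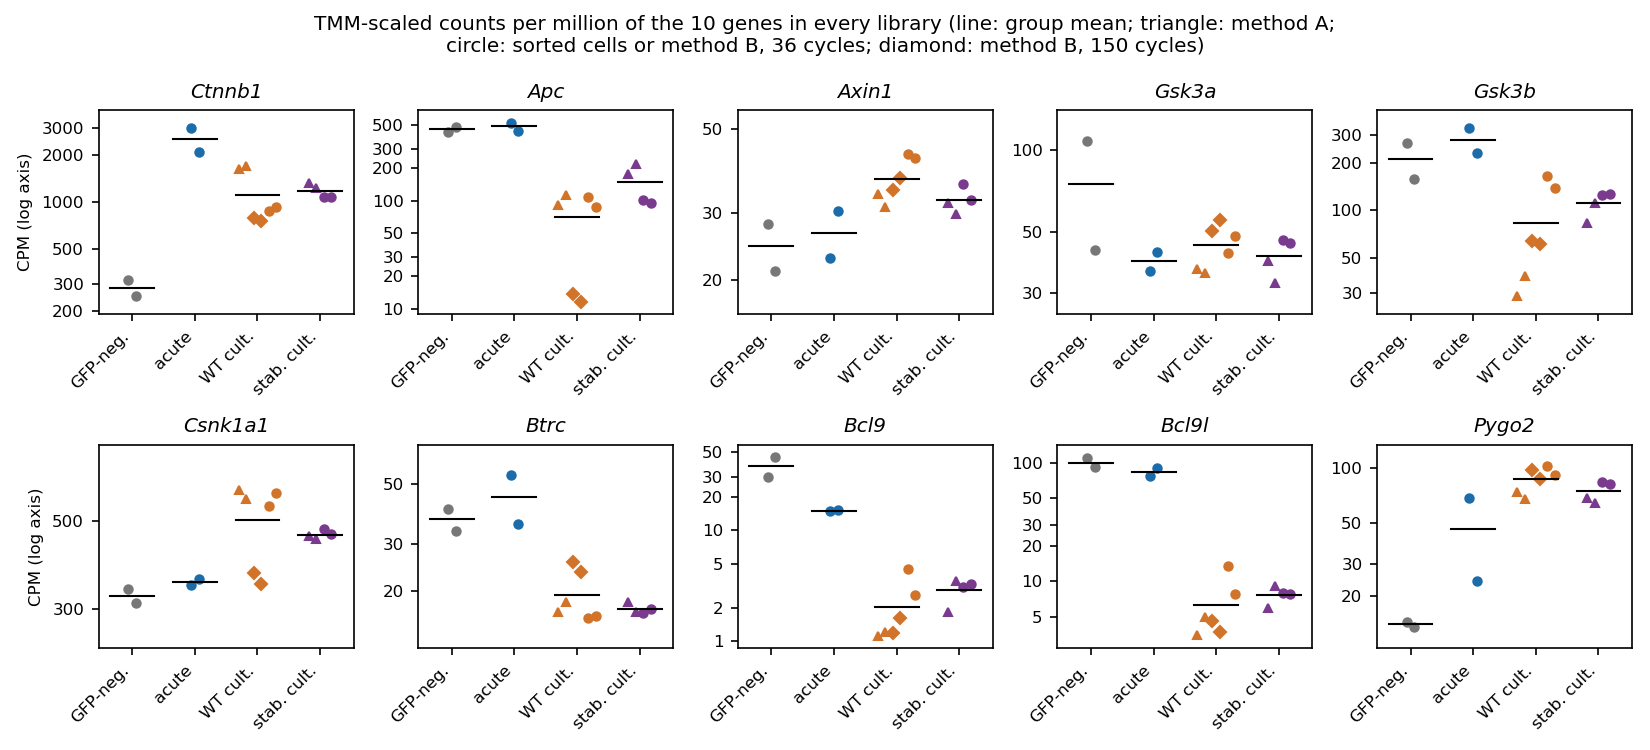
Each panel plots 1 gene, with the 4 groups on the x axis and CPM (a share of the library's estimated counts, scaled by the trimmed mean of M-values, log axis) on the y axis; each point is 1 RNA-seq library. Ctnnb1 sits between 2090 and 2994 in acutely isolated ECs and at 315 or less in GFP-negative cells, and Bcl9 and Bcl9l drop to at most 4.46 and 13.3 in WT cultures.

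The first comparison asked which of these genes mark ECs within the brain. Ctnnb1 was at 2994 and 2090 CPM in acutely isolated ECs against 315 and 249 in GFP-negative cells. Both EC libraries lay far above both others, and the difference was 3.19 ± 0.38 (log2 fold change ± SE, edgeR quasi-likelihood test, adjusted p = 0.0035). Ctnnb1 was the 1 of 10 called higher at an adjusted p under 0.05 and over 2-fold with at least 5 TPM in each library of the higher group, where 8.28% of all 15116 genes tested were called higher and 7.55% lower. At the adjusted p alone 9.9% of all genes were higher and 19.7% lower, and the members again were Ctnnb1 and none.

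The other 9 members did not pass the test between sorted groups. Pygo2, whose protein binds methylated histone tails, was at 68.9 and 24.1 CPM in the 2 EC libraries and at 14.5 and 13.4 in GFP-negative cells. The groups did not overlap, but the EC libraries differed from each other more than the lower one differed from the GFP-negative cells (1.76 ± 0.63, adjusted p = 0.083; without acute replicate 2 it was 2.33, adjusted p = 0.019). Bcl9, the adaptor between beta-catenin and pygopus, was at 14.7 and 15.2 CPM in ECs and at 30.1 and 45.1 in GFP-negative cells, with no overlap (−1.31 ± 0.49, adjusted p = 0.095). DESeq2 gave adjusted p-values of 0.034 for Pygo2 and 0.015 for Bcl9, so both calls depended on the tool. For the destruction complex the log2 differences were 0.11 ± 0.30 for Apc, 0.13 ± 0.48 for Axin1, −0.92 ± 0.52 for Gsk3a, 0.42 ± 0.39 for Gsk3b, 0.14 ± 0.29 for Csnk1a1 and 0.29 ± 0.44 for Btrc. The values of Apc, Gsk3b, Csnk1a1 and Btrc change sign with the scaling or the length correction. Axin1 ran from −0.23 to 0.61 over the alternatives, so no direction is given for any of these genes.

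The second comparison set WT cultures against acutely isolated ECs for the same genes. The acutely isolated ECs were sorted and read single-end, while all cultures were lysed in the well and read paired-end with other cycle numbers. An effect of culture therefore cannot be told apart from sorting and library type in any gene total of this comparison. The paper trimmed the reads of a culture library to the other formats and reported highly correlated gene levels, which does not cover sorting. Of the 10, 4 were called lower in WT cultures than in acutely isolated ECs and 0 higher, where 10.2% of all 13798 genes tested were called lower and 13.5% higher. At the adjusted p alone, 6 were lower and 0 higher, against 21.3% and 23.9% of all genes. At an unadjusted p under 0.05 the counts were also 6 and 0, where 53.6% of all genes passed in either direction. DESeq2 gave 6 members an adjusted p under 0.05, where 52.8% of all genes passed in either direction. Leaving out 1 library took the 4 called genes to as few as 1 and the 6 to as few as 2 (both without acute replicate 1), summing the wells of each experiment gave 1 and 3, and limma on log2(TPM + 1) gave 1 and 2. That limma fit tested 9 members, since Bcl9 did not pass its filter. In the main test the median log2 fold change of the 10 was −1.21, and that of all genes tested was 0.10. Of the members, the fall was in beta-catenin's own mRNA, in Apc, Gsk3b and Btrc of the destruction complex, and in Bcl9 and Bcl9l; Axin1, Gsk3a, Csnk1a1 and Pygo2 did not pass the test.

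Ctnnb1 fell from 2994 and 2090 CPM in acutely isolated ECs to between 753 and 1698 in WT cultures, with a median of 905 (−1.20 ± 0.42, adjusted p = 0.043). The groups did not overlap. Within the WT cultures, however, the 2 C57BL/6J wells of method A were highest at 1625 and 1698, the 2 wells read with 150 cycles were lowest at 793 and 753, and the other 2 wells of method B were at 880 and 930. The call was a narrow one: leaving out acute replicate 1 gave −0.92 (adjusted p = 0.22), acute replicate 2 −1.46 (0.065), and WT replicates 3, 4, 5 or 6 gave adjusted p-values of 0.074, 0.070, 0.066 and 0.077 in turn for Ctnnb1. It was also lost with each experiment's wells added up (−1.12, adjusted p = 0.21), with scaling by library size (−0.95, adjusted p = 0.10), with limma on log2(TPM + 1) (−1.20, adjusted p = 0.096), and against the 36-cycle cultures (−0.99, adjusted p = 0.070) or the method A cultures alone (−0.62, adjusted p = 0.12).

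Of the destruction complex scaffolds, Apc fell and Axin1 did not. Apc was at 528 and 444 CPM in acutely isolated ECs, and in WT cultures the lowest well was at 11.6, the median at 88.6 and the highest at 114 (−2.78 ± 0.76, adjusted p = 0.016). Every WT well was below both EC libraries, and WT cultures 3 and 4, the libraries of 150 cycles, were lowest at 13.8 and 11.6. Without acute replicate 1 or 2 the adjusted p of Apc was 0.073 or 0.050, with log2 fold changes of −2.67 and −2.94. Axin1, the scaffold on which the kinases meet beta-catenin, was at 22.8 and 30.3 CPM in acutely isolated ECs and at 31.2 to 43.0 in WT cultures with a median of 35.7. Its WT cultures were all slightly higher (0.47 ± 0.27, adjusted p = 0.18), a difference that did not pass the test.

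Of the kinases Gsk3b fell, and Gsk3a and Csnk1a1 did not pass the test. Gsk3b was at 330 and 230 CPM in acutely isolated ECs and at 28.5 to 164 in WT cultures with a median of 62.6 (−1.77 ± 0.60, adjusted p = 0.039), without overlap. Its paralog Gsk3a, which phosphorylates the same substrates, was at 35.8 and 42.3 CPM in acutely isolated ECs and between 35.4 and 55.1 in WT cultures (0.19 ± 0.27, adjusted p = 0.60). Per length, the ratio of Gsk3b to Gsk3a (rescaled TPM) was 2.93 and 3.21 in acutely isolated ECs, 0.33 to 0.583 in WT cultures 1 to 4, 2.13 and 1.15 in WT cultures 5 and 6, and 0.895 to 1.47 in stabilized cultures. All 10 cultures were below both EC libraries in this ratio. Csnk1a1, the priming kinase, was at 345 and 358 CPM against 346 to 600 with a median of 558 (0.52 ± 0.34, adjusted p = 0.24). Csnk1a1 passed as higher against the 36-cycle cultures alone (0.71, adjusted p = 0.032), and likewise in method A (0.73, adjusted p = 0.030) and in the 36-cycle wells of method B (0.69, adjusted p = 0.027), where WT cultures 3 and 4 are left out. The call on Gsk3b was lost without acute replicate 1 (−1.50, adjusted p = 0.18) or 2 (−2.04, 0.075) and without WT replicates 2, 3 or 4 (adjusted p = 0.059, 0.063 and 0.063), with each experiment's wells added up Gsk3b was at −1.70 with an adjusted p of 0.083, and with an offset for transcript length Gsk3b was at −1.44 with an adjusted p of 0.067.

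Btrc, the adaptor that brings phosphorylated beta-catenin to the SCF ubiquitin ligase, fell from 54.0 and 35.5 CPM to between 15.9 and 25.6 with a median of 17.5 (−1.22 ± 0.30, adjusted p = 0.010). The groups did not overlap. Btrc lost its call without acute replicate 1 (−0.88, adjusted p = 0.10), with each experiment's wells added up (−1.13, adjusted p = 0.11) and with limma on log2(TPM + 1) (−0.53, adjusted p = 0.52).

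Of the coactivators Bcl9 and Bcl9l fell, and Pygo2 did not pass the test. Bcl9l was at 77.3 and 90.1 CPM in acutely isolated ECs and at 3.54 to 13.3 in WT cultures with a median of 4.81 (−3.73 ± 0.47, adjusted p = 0.00055). Bcl9 was at 14.7 and 15.2 against 1.13 to 4.46 with a median of 1.43 (−2.87 ± 0.53, adjusted p = 0.0029). Its most abundant transcript, Bcl9-201, held only 18.5 to 152 counts in WT cultures. With an offset for transcript length Bcl9 was at −1.656 ± 0.48 (adjusted p = 0.020) and Bcl9l at −3.125 ± 0.47 (adjusted p = 0.00096). Both fell in every WT well and kept an adjusted p under 0.05 whichever single library was left out, with highest adjusted p-values of 0.0040 and 0.015. Neither counted among the 4 called genes, because the call asks for at least 5 TPM as deposited in both libraries of acutely isolated ECs, where Bcl9l was at 4.68 and 16.4 and Bcl9 at 0.666 and 1.19. Pygo2 was at 68.9 and 24.1 CPM in acutely isolated ECs and at 67.8 to 103 in WT cultures with a median of 89.1, so the groups overlapped by the higher EC library (0.89 ± 0.41, adjusted p = 0.11). Pygo2 passed the test without acute replicate 1 (1.83, adjusted p = 0.012) and with an offset for transcript length (2.23 ± 0.49, adjusted p = 0.0059).

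**Figure D2:**
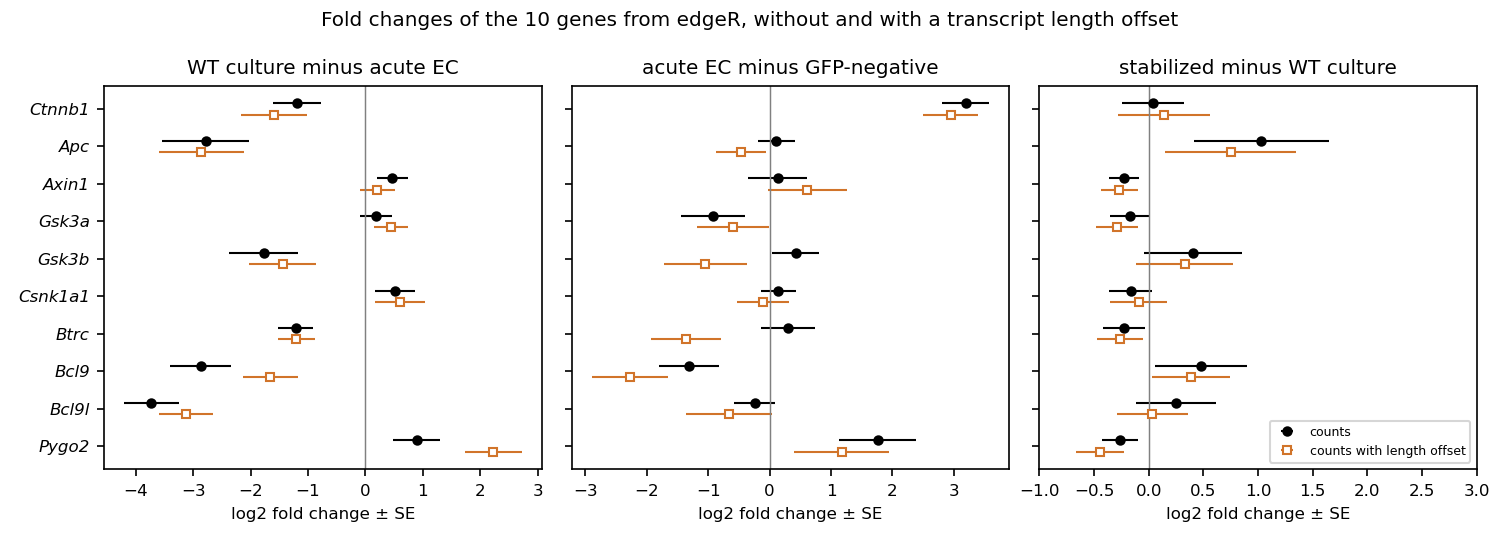
Log2 fold changes (x axis) with their standard errors as bars for the 10 genes (y axis) in the 3 comparisons, from the edgeR quasi-likelihood test. Ctnnb1 lies at 3.19 for acutely isolated ECs against GFP-negative cells and at −1.20 for WT cultures against acutely isolated ECs, and Bcl9l is lowest in the latter at −3.73.

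Other genes of the pathway, on a list of 35 that leaves out the 10 members, gave 5 higher and 12 lower in WT cultures at an adjusted p under 0.05, and 18 that did not pass, with a median log2 fold change of −0.41. Of all genes tested, 23.9% were higher and 21.3% lower. Among the coactivators and nuclear partners 8 of 9 fell, including the histone acetyltransferases Ep300 (−3.45 ± 0.52, adjusted p = 0.0011) and Crebbp (−2.64 ± 0.53, adjusted p = 0.0042) and the chromatin remodeller Chd8 (−2.52 ± 0.84, adjusted p = 0.037). The list's median log2 fold change was −1.45, and −1.58 with an offset for transcript length. With that offset Ctnnbip1 (−0.045, adjusted p = 0.93) and Smarca4 (−0.62, adjusted p = 0.16), which are among the 8, did not pass. Pygo1, the paralog of Pygo2, also fell (−3.76 ± 0.58, adjusted p = 0.0012). Of the 6 pathway inputs that act on the complex, 3 rose, namely the dishevelled gene Dvl1 and the GSK3-binding Frat2 and Gskip (1.65, 2.07 and 1.44), which were chosen for naming after their values were seen, as was Pygo1. With the length offset Gskip did not pass (0.85, adjusted p = 0.060). All 5 target genes fell, which are feedback inhibitors and a TCF/LEF factor: Notum (−8.98 ± 0.83), Axin2 (−8.29 ± 0.70), Nkd1 (−6.04 ± 0.36), Lef1 (−4.63 ± 0.61) and Apcdd1 (−4.06 ± 0.49), with a highest adjusted p of 0.00065. Axin2 is also the paralog of Axin1.

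In acutely isolated ECs against GFP-negative cells 6 of the 35 were higher and 2 lower at an adjusted p under 0.05, where 9.9% and 19.7% of all genes were. All 3 relatives and junction partners of beta-catenin were higher, including the p120 catenin gene Ctnnd1 (2.18 ± 0.38, adjusted p = 0.010) and plakoglobin, Jup (1.88 ± 0.40, adjusted p = 0.018). So was Ctnnbip1, which encodes an inhibitor of the beta-catenin and TCF interaction (2.83 ± 0.38, adjusted p = 0.0048), while Apc2, the paralog of Apc known from neurons, was lower (−4.80 ± 0.56, adjusted p = 0.0033). Of the 5 targets 4 were higher: Notum (5.64), Lef1 (5.63), Apcdd1 (4.73) and Axin2 (2.50), with a highest adjusted p of 0.0089. Both of these comparisons use the same 2 libraries of acutely isolated ECs.

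The third comparison asked whether stabilizing beta-catenin changed these genes in culture. None of the 10 passed the test over all 10 cultures, in a fit without a term for isolation method or in a fit with one. In the fit without the term, none of the 12971 genes tested passed (0% higher and 0% lower, under either call rule). At an unadjusted p under 0.05 there were 0 members and 1422 genes, and DESeq2 called 0 members and 272 genes. Ctnnb1 was at 1333, 1235, 1081 and 1080 CPM in the stabilized cultures, inside the range of 753 to 1698 in WT cultures (0.04 ± 0.28, adjusted p = 0.96). Apc was at 176, 218, 101 and 94.5 against 11.6 to 114 (1.03 ± 0.62, adjusted p = 0.55). Gsk3b was at 83.1, 111, 125 and 126 against 28.5 to 164 (0.40 ± 0.45, adjusted p = 0.74). For the remaining 7 the log2 differences ran from −0.26 for Pygo2 to 0.48 for Bcl9. The groups overlapped in all 10 genes, with the 3 WT experiments spread widely. Of the 35 other pathway genes 0 passed either. The target gene Axin2 was at 6.18, 5.64, 4.98 and 4.89 CPM in stabilized cultures and at 0.087 to 0.859 in WT cultures, without overlap (3.29 ± 0.54, adjusted p = 0.21). With an offset for transcript length Axin2 passed the test (3.08 ± 0.31, adjusted p = 0.011), the 1 gene of all those tested that did. In acutely isolated ECs Axin2 was at 178.8 and 160.3.

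Within an isolation method the stabilized cultures could be set against WT cultures of the same read length, 2 wells against 2. In method A, Gsk3b was higher in stabilized cultures, at 83.1 and 111 against 28.5 and 38.1 CPM (1.504 ± 0.18, adjusted p = 0.0013), and so was Apc, at 176 and 218 against 90.4 and 114 (0.91 ± 0.14, adjusted p = 0.0026). Ctnnb1 was lower, at 1333 and 1235 against 1625 and 1698 (−0.41 ± 0.08, adjusted p = 0.0056). In all, 4 members were higher and 2 lower in method A, where 56% of 12860 genes had an adjusted p under 0.05. In method B, Ctnnb1 was higher, at 1081 and 1080 against 880 and 930 (0.25 ± 0.05, adjusted p = 0.012), while Gsk3b was at 125 and 126 against 164 and 139 (−0.27 ± 0.10, adjusted p = 0.069) and Apc at 101 and 94.5 against 109 and 86.9 (−0.01 ± 0.12, adjusted p = 0.96). There 1 member was higher and 2 were lower, with 37% of 12847 genes passing. The wells of 1 experiment share pooled brains, and each of these fits set 1 experiment against 1 other, so a difference between experiments cannot be told apart from the genotype.

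The difference between methods was itself tested, as an interaction over the 8 libraries of 36 cycles. It passed for 4 of the 10 members, Ctnnb1 (0.68 ± 0.09, adjusted p = 0.00052), Apc (−0.90 ± 0.21, adjusted p = 0.0072), Gsk3b (−1.75 ± 0.23, adjusted p = 0.00051) and Bcl9l (−1.14 ± 0.41, adjusted p = 0.046), where 49.5% of all 13369 genes passed. The share among the members is below that of all genes. With an offset for transcript length 2 passed, Ctnnb1 and Gsk3b, and the Apc interaction was at −0.40 with an adjusted p of 0.27. Bcl9l kept an adjusted p under 0.05 in only 2 of the 8 fits that left out 1 well, with a range of −1.53 to −0.73. The WT wells of method A came from C57BL/6J mice without the floxed allele and those of method B from mice with it, so strain, allele and method cannot be told apart.

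**Figure D3:**
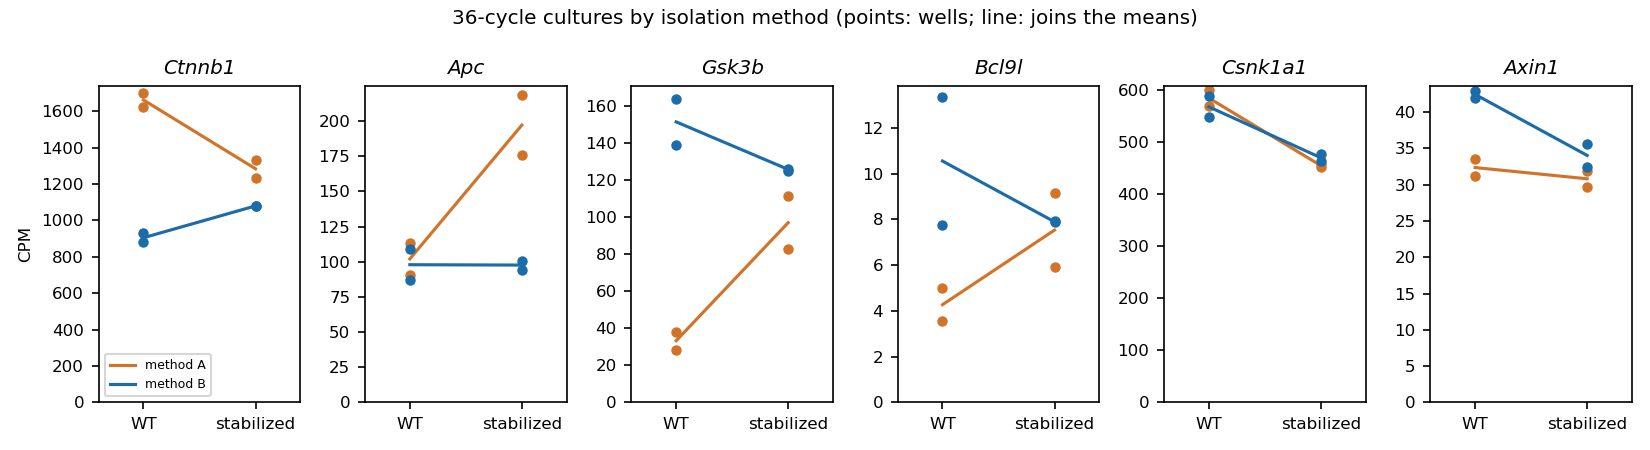
CPM (y axis, linear scale) of Ctnnb1, Apc, Gsk3b, Bcl9l, Csnk1a1 and Axin1 in WT and stabilized cultures (x axis), by isolation method. Only the wells of 36 cycles are shown, each point is 1 well, and lines join the means. For Gsk3b the stabilized wells of method A lie above the WT wells of method A (83.1 and 111 against 28.5 and 38.1), and in method B both genotypes lie between 125 and 164 in the wells of 36 cycles.

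The genes' transcripts gave a further view, since the tables list an estimated count for every annotated transcript. Of 49 member transcripts tested in WT cultures against acutely isolated ECs, 8 were higher and 8 lower at an adjusted p under 0.05, where 17.8% and 11.2% of all 45943 transcripts were. None differed between acutely isolated ECs and GFP-negative cells (0% of 42777 transcripts; at an unadjusted p under 0.05, 4 members were higher and 2 lower) or between stabilized and WT cultures (0% of 37066; unadjusted, 1 was lower).

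Ctnnb1 counts were assigned to different transcripts in sorted cells and in most cultures. Ctnnb1-201, which is 3623 bases long and 1 of 6 protein-coding transcripts of the gene, held 0 counts in both GFP-negative libraries, 36.1 and 0 in the acutely isolated ECs, between 7314 and 41968 in WT cultures and between 44103 and 56776 in stabilized cultures (WT against acute, adjusted p = 0.0037). As a share of the gene's counts it was 24.2% and 56.2% in WT cultures 1 and 2, 99.4% and 99.7% in WT cultures 3 and 4, 89.3% and 86.7% in WT cultures 5 and 6, and 81.5% to 86.2% in stabilized cultures. In its place the sorted cells had Ctnnb1-214, a protein-coding transcript of 2702 bases (29.6% to 46.3% of counts, but also 48.3% or 14611 counts in WT culture 1 and 11350 counts in WT culture 2, and at most 0.408% in the other cultures), and Ctnnb1-215, annotated as a retained intron, a single block of 1292 bases at the 3′ end of the gene on the plus strand (chr9:120959216-120960507, GRCm38), with 44.4% to 54.3%. Ctnnb1-215 took 0.0287% to 25.8% in WT cultures and 10.4% to 16.4% in stabilized ones. The counts of the acutely isolated ECs were thus assigned to shorter transcripts. Ctnnb1-214 and Ctnnb1-215 both lie within the span of Ctnnb1-201, and how reads were shared among overlapping transcripts was not tested. Averaged over its transcripts, Ctnnb1 had an effective length of 773 to 883 bases in sorted cells and 1866 to 3406 in cultures. Ctnnb1-214 alone had an effective length of 1367 to 1861 bases in sorted cells and 2643 to 3248 in cultures. The average therefore does not measure transcript choice alone. The same split ran along read length and single-end against paired-end reading, which the sorted cells and the cultures do not share, so cell state and library type cannot be told apart here.

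**Figure D4:**
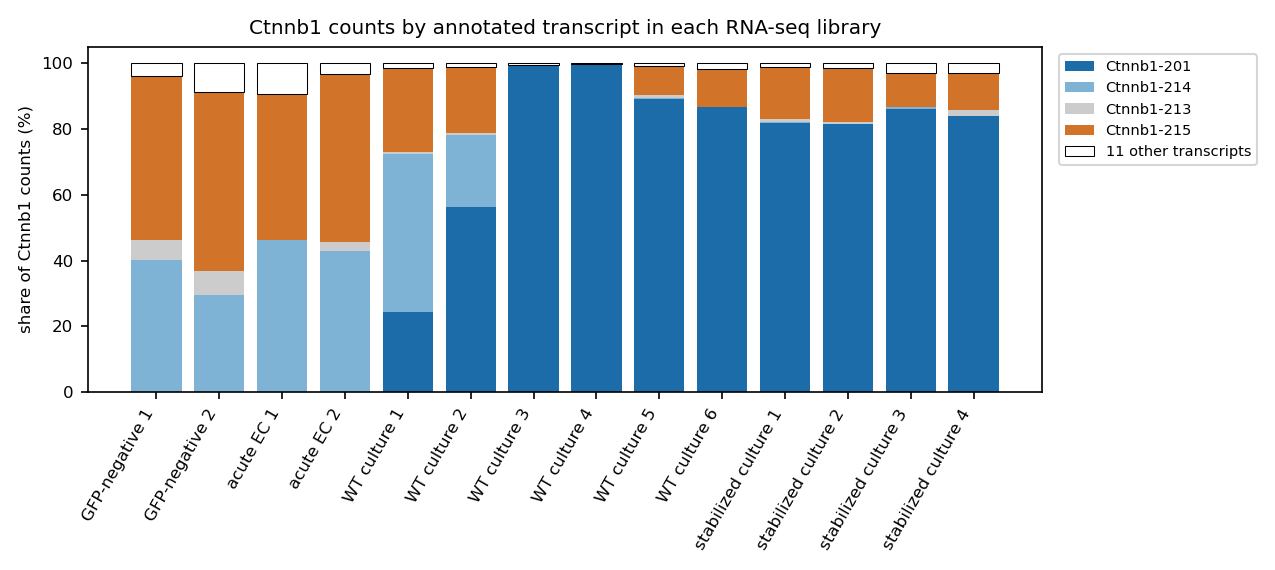
Share of the Ctnnb1 counts (y axis, percent) in each RNA-seq library (x axis) that was assigned to Ctnnb1-201, Ctnnb1-214, Ctnnb1-215 and all other transcripts. Ctnnb1-201 is at or near 0 in the 4 sorted libraries and reaches 99.7% in WT culture 4.

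Axin1 and Csnk1a1, whose gene totals did not pass the test, differed in their transcripts. Here too, cell state and library type cannot be told apart. Axin1-201 took 11.8% to 22.1% of Axin1 counts in sorted cells and 54.9% to 77.5% in cultures (3.25 ± 0.52 for WT against acute, adjusted p = 0.0038). Csnk1a1-204, with 4083 bases the longest of the named Csnk1a1 transcripts, rose as well (1.69 ± 0.35, adjusted p = 0.010). Apc has 4 protein-coding transcripts, of which Apc-203 (12346 bases) held 87.8% and 67.6% of the counts in acutely isolated ECs. It held 55.4% to 74.7% in stabilized cultures and 52.1% to 70.4% in WT cultures 1, 2, 5 and 6. In WT cultures 3 and 4, the libraries of 150 cycles, Apc-203 held 0 counts. The longer protein-coding Apc-202 (12811 bases) did not pass (2.83 ± 2.46 for WT against acute, adjusted p = 0.40). A lack of Apc-203 counts thus does not by itself mean a lack of coding Apc transcripts. Both coding transcripts of Bcl9l that were tested fell, Bcl9l-203 (−3.08 ± 0.62, adjusted p = 0.0089) and Bcl9l-206 (−3.39 ± 0.60, adjusted p = 0.0052), so the fall of the gene did not rest on 1 isoform.

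The genes whose levels ran most like Ctnnb1 over the 14 libraries, by Pearson r of log2(TPM + 1), were Ly6c1 (0.962), Akr1c14 (0.959), Gbp9 (0.955), Myrip (0.955) and Prkd3 (0.952), out of 8754 genes with a mean of at least 5 TPM. With rescaled TPM, a choice made after the deposited TPM were found to be unequal between libraries, the first 5 were Slfn5 (0.969), Nostrin (0.969), Nrp1 (0.966), Prkd3 (0.964) and Birc3 (0.962). The libraries share groups, read lengths and depth, so these values describe the pattern only. Of the other members 8 passed that minimum, all but Bcl9, and none was among the first 5. Their r with Ctnnb1 by rescaled TPM ran from −0.654 for Gsk3a to 0.364 for Apc.

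ATAC-seq, which marks open chromatin, offered a readout apart from the RNA. Each of the 10 genes had a peak within 1000 bases of an annotated start in all 10 libraries. Of all 21834 nuclear protein-coding genes, 54.9% had one in both libraries of acutely isolated ECs, 53.9% in the 6 of WT cultures and 62.6% in the 2 of stabilized cultures. Peaks numbered between 31844 and 98840 per library and were called per library, so heights were compared within a library. Btrc had the strongest start-site peaks of the 10 in rank, with a fold enrichment of 19.2 and 21.6 in acutely isolated ECs and 15.1 to 23.8 in WT cultures, at or above the 89.6th percentile of all start-site peaks in each library. Ctnnb1, the most abundant transcript of the 10, had fold enrichments of 11.2 and 13.9 in acutely isolated ECs and 6.29 to 13.96 in WT cultures, at percentiles between 20.1 and 57.1. Pygo2 was at 16.1 and 17.1 in acutely isolated ECs and at 11.9 to 22.3 in WT cultures.

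Bcl9l, whose RNA fell the most, had the weakest start-site peak in acutely isolated ECs, at 3.54 and 3.88, at or below the 5.2nd percentile. In WT cultures 3 to 6 and in both stabilized cultures its strongest peak lay elsewhere, within 1 merged region at chr9:44498053-44499073 (GRCm38) over a downstream annotated start, with fold enrichments of 6.75, 7.40, 10.3 and 12.7 in the WT cultures and 5.59 and 7.06 in the stabilized ones. That region had a peak in all 6 WT cultures and in neither library of acutely isolated ECs.

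**Figure D5:**
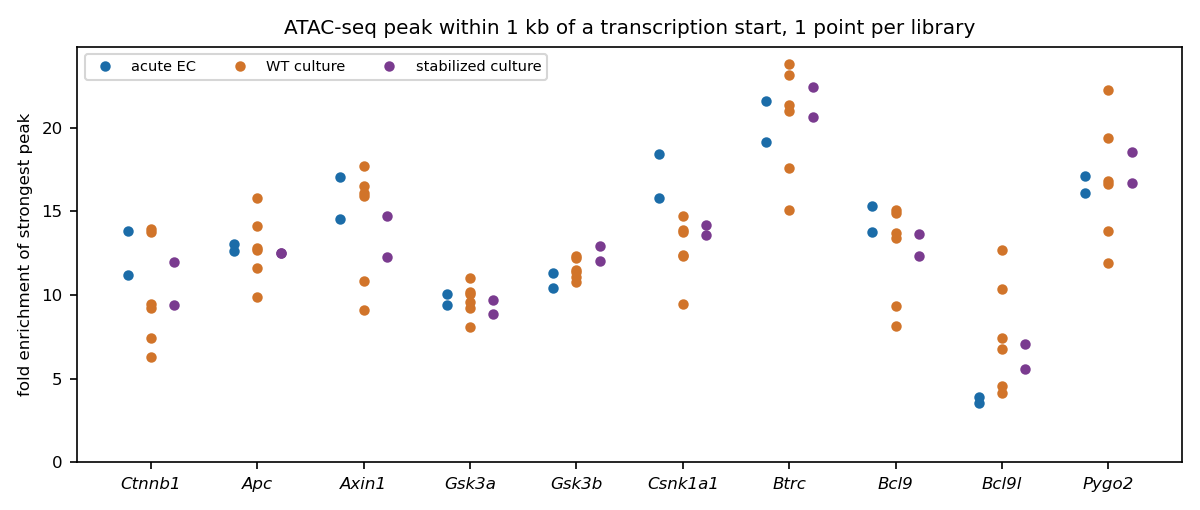
Fold enrichment of the strongest ATAC-seq peak within 1000 bases of an annotated start (y axis) for each gene (x axis); each point is 1 library, grouped as acutely isolated ECs, WT cultures and stabilized cultures. Btrc is highest, at 15.1 to 23.8 in WT cultures, and Bcl9l is lowest in acutely isolated ECs, at 3.54 and 3.88.

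Over the loci of the 10 genes, each extended by 10000 bases to either side, the peaks of all libraries merged into 89 regions. Of these 16 had a peak in every library of both acutely isolated ECs and WT cultures (13.4% of the 126319 regions in the genome did), 0 were in both libraries of acutely isolated ECs and no WT culture (2.94% in the genome), and 8 were in all 6 WT cultures and neither library of acutely isolated ECs (8.99%, against 8.09% in the genome, a share near the background). The 8 regions present in WT cultures and absent from acutely isolated ECs were 3 at Gsk3b and 1 each at Gsk3a, Csnk1a1, Bcl9, Bcl9l and Pygo2, and all 8 also had a peak in both stabilized cultures; none was at Ctnnb1, Apc, Axin1 or Btrc.

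The letters of an AP-1 site (TGACTCA or, on the other strand, TGAGTCA) were in the central windows (the bases around the summit) of 4 of the 8 regions. In the genome 43.7% of 10209 windows of the same length, from regions with a peak in all WT cultures and in no library of acutely isolated ECs, held them and 10.6% of 16930 windows from regions with a peak in every library of both. The TCF/LEF letters CTTTGAT or CTTTGAA, on either strand, were in none of the 8, against 9.51% and 6.57% in the genome. These are matches of letters and no measurement of binding.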

How the data were processed

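The authors quantified the RNA-seq reads with Salmon 0.14.0 against GENCODE transcripts (GRCm38), and deposited an estimated count and a TPM for each of 140198 transcripts per library. The deposited TPM also cover noncoding RNA, which took unequal parts of each library (nuclear protein-coding genes had 26.5% to 94.3% of the total), so TPM were rescaled to those genes wherever levels of different genes were set side by side. For ATAC-seq the authors called peaks per library with MACS2 2.1.2 after HISAT2 2.1.0 alignment, and deposited a fold enrichment (a ratio), a −log10 p-value and a −log10 q-value and a score per peak.

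Here the estimated counts were summed per gene, rounded and tested with edgeR 4.0.16 (R 4.3.3; filterByExpr, TMM, quasi-likelihood) over all protein-coding genes, with Benjamini-Hochberg adjustment. A call needed an adjusted p under 0.05, over 2-fold and at least 5 TPM in each library of the higher group. The study's own EBSeq was not used. Alternatives included DESeq2 1.42.0 and limma 3.58.1 on log2(TPM + pseudocount). The scripts were tested on simulated data. Of 100 genes changed by 2 (log2), 12 were recovered for WT cultures against acutely isolated ECs. For acutely isolated ECs against GFP-negative cells 18 were recovered, and 79 for stabilized against WT cultures. At a change of 4 these counts were 77, 77 and 99. A gene that did not pass the test may therefore still have changed. All replicates differed by more than counting noise (chi-square over degrees of freedom at least 7.51), but wells of 1 experiment differed far less (7.51 to 30.3) than libraries of other pairs within a group, so a fit with each experiment's wells added up was run as an alternative.

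The members and the pathway and marker lists were chosen with earlier results of these data known. All members were named, and of the pathway list up to 8 called genes with the largest change per comparison. Same-numbered replicates were not treated as pairs. The exon sequence came from the GRCm38 genome, and the sequence of 1 other region is not reported here.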

Additional observations from a re-analysis of the deposited data

Results flagged for a closer look

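For 4 members the difference between stabilized and WT cultures was not the same in the 2 isolation methods, by the interaction test over the 8 culture libraries of 36 cycles, in which each method and genotype is 1 experiment of 2 wells. The interaction (method B minus method A, log2) was 0.68 for Ctnnb1, which was lower with stabilization in method A and higher in method B. It was −0.90 for Apc and −1.75 for Gsk3b, both higher with stabilization in method A, and −1.14 for Bcl9l. Apc did not pass with an offset for transcript length, and Bcl9l passed in 2 of 8 fits that left out 1 well. Since 49.5% of all genes passed this test, the differences are not particular to these genes. Of 30 groups of 4 or 6 culture libraries examined for a library far from the rest, 0 held one, where chance gives about 1 in 20 for independent libraries. The libraries came as wells of the same experiment, so an experiment apart from the others could not be found in this way.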

How the results depend on the processing

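Over all genes the median difference (log2) moved by over 0.1 with the scaling: in WT cultures against acutely isolated ECs it was 0.10 with TMM scaling, 0.30 with library size alone and 0.55 with limma on log2(TPM + 1), and in acutely isolated ECs against GFP-negative cells −0.06 with TMM and −0.44 with library size alone. Counts of 10 members in WT cultures against acutely isolated ECs (0 called higher, 4 called lower; 0 higher and 6 lower at the adjusted p alone) became 1 called higher and 2 called lower with library size alone, 1 and 1 with limma on log2(TPM + 1), 2 and 1 with limma on log2(TPM + 0.1), 1 higher with an offset for transcript length, 1 lower with the wells of 1 experiment summed, and 2 lower with the 36-cycle cultures only. At the adjusted p alone, 1 was higher with library size, the length offset, limma on log2(TPM + 1), all 14 libraries in 1 fit, the 36-cycle cultures, method A cultures or method B 36-cycle cultures, and 2 with limma on log2(TPM + 0.1); 2 were lower with either limma fit and 3 with summed wells. Leaving out each library in turn gave 0 to 1 called higher, 1 to 4 called lower, and 0 to 1 higher and 2 to 6 lower at the adjusted p alone. Both limma fits tested 9 members here, without Bcl9. Gsk3a, at 0.19, turned to −0.12 in method A cultures only.

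In acutely isolated ECs against GFP-negative cells DESeq2 gave 2 higher and 1 lower at the adjusted p, and all 14 libraries in 1 fit gave 2 higher; leaving out a library gave 1 to 2, by either call rule, and moved Btrc between −0.17 and 0.57. Signs turned for Apc (−0.29 with library size alone, −0.46 with the length offset, −0.65 and −0.65 with limma at pseudocounts 1 and 0.1), Gsk3b (−1.05 with the length offset, −0.93 and −0.95 with limma), Csnk1a1 (−0.24 with library size alone, −0.26 and −0.27 with limma) and Btrc (−1.36 with the length offset, −1.45 and −1.53 with limma, −0.17 without acute replicate 1). Axin1 ran from −0.23 to 0.61 over the alternatives. None of these genes had passed the test.

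In stabilized against WT cultures, method A alone gave 1 called higher, and 4 higher and 2 lower at the adjusted p; method B 36-cycle cultures gave 1 higher and 2 lower. Signs turned for Ctnnb1 in method A (−0.41), and in method B for Apc (−0.0082), Gsk3a (0.025), Gsk3b (−0.27), Btrc (0.067), Bcl9 (−0.13) and Bcl9l (−0.41); Btrc was also at 0.0072 in the 36-cycle cultures. The length offset left 2 interactions, and leaving out a library gave 3 to 5. Member transcripts lower in WT cultures than in acutely isolated ECs numbered 4 to 9 when a library was left out. The causes were not tested.

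Replicate numbers were not taken as pairs: deviations of same-numbered libraries correlated at −0.033 and 0.037 (WT and acute), 0.06 (acute and GFP-negative) and 0.47, 0.46, −0.011 and 0.043 (stabilized and WT). With 2 libraries per sorted group, these values cannot show whether same-numbered EC and GFP-negative libraries came from the same sort. With the replicate block, WT cultures against acutely isolated ECs had 3 called lower, Ctnnb1 at −0.59 (adjusted p = 0.22) and Gsk3a at −0.12, and stabilized against WT cultures had 1 called higher and 2 higher at the adjusted p, Gsk3b (1.21, adjusted p = 0.043) and Bcl9l (0.80, adjusted p = 0.049), with 138 of all genes called higher. Stabilized and WT libraries of the same method and read length deviated together whatever their number (0.38 to 0.53). Counts of start-site peaks kept within 9 to 10 members under the other peak thresholds and windows. The sorted groups had 2 libraries each.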
